A study of Mus musculus with 9 samples.

Results

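Dendritic cells lacking STING were compared with wild-type dendritic cells after DNA from tumor cells had been delivered to both. STING is the adaptor through which cells respond to DNA in their cytosol. The comparison rests on 6 of the 9 arrays of the series, 3 titled as STING with tumor DNA and 3 titled as wild type with tumor DNA, and each knockout array was paired with the wild-type array of the same number in its title (the title without a number was taken as number 1). The samples were chosen by their titles alone, and the remaining arrays, of wild-type cells in media, were left out. Bone marrow of the 129/SvEv strain was kept in GM-CSF, which yields dendritic cells, for a culture of 9 to 12 days. The purified tumor DNA was given with the transfection lipid lipofectamine for 7 h, and total RNA was hybridised to an Affymetrix mouse array. The groups share strain, culture, DNA and lipid, and differ in the label's genotype, wild type or STING knock out. The labels name neither the altered allele nor the tumor, and do not say whether same-group arrays came from separate mice or cultures, so the spread behind each p-value is that of these arrays and may be technical. Knockout cells without DNA were not analysed here, and neither were cells given the lipid alone, so differences that existed before the DNA and differences in the response to it cannot be told apart. In such bulk cultures, fewer cells of a type and less RNA per cell cannot be told apart either.

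DNA in the cytosol is bound by the enzyme cGAS, which makes a cyclic dinucleotide that activates STING. STING then recruits the kinase TBK1, which phosphorylates the transcription factor IRF3, and the cell transcribes the gene of interferon beta. Interferon leaves the cell, binds its receptor on the same and neighbouring cells and, through Janus kinases and the transcription factors they activate, switches on a large set of antiviral genes. Dendritic cells that sense DNA in this way also put out chemokines and costimulatory molecules that draw and prime T cells.

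Sting1, the gene of STING, read 2258, 1061 and 1158 signal units on the wild-type arrays numbered 1 to 3, and 246, 336 and 327 on the knockout arrays. All 3 knockout values lay below all 3 wild-type values, at a log2 difference of -2.17 ± 0.29 (SE, n = 3 pairs, limma adjusted p = 0.0035). Here and throughout, a difference is knockout minus wild type on the log2(signal + 16) scale with its SE, and the adjusted p is limma's, Benjamini-Hochberg over all 45037 probe sets. A further Sting1 probe set read 1427, 631 and 654 against 203, 285 and 331. The sources used here do not show whether either probe set lies in the altered part of the gene, so these values need not check the knockout. None of the 5 measured genes on each side of Sting1 passed the test, with differences from -0.69 to 0.71.

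On the deposited scale, fewer genes were lower without STING than were higher, but the lower genes reached larger differences. At an adjusted p under 0.05, 2384 probe sets (5.29%) were lower in the knockout and 4336 (9.63%) were higher. Read at the brightest probe set of each of 18193 genes, 1272 genes (6.99%) were lower, by a median of -1.28, and 2536 (13.9%) were higher, by a median of 1.02. Among them 116 lower genes but 11 higher genes differed by at least 3 log2 units, and 42 against 1 by at least 4. The 3 knockout values lay below the 3 wild-type values in 2376 genes (13.1%), and above them in 4130 (22.7%).

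**Figure D1:**
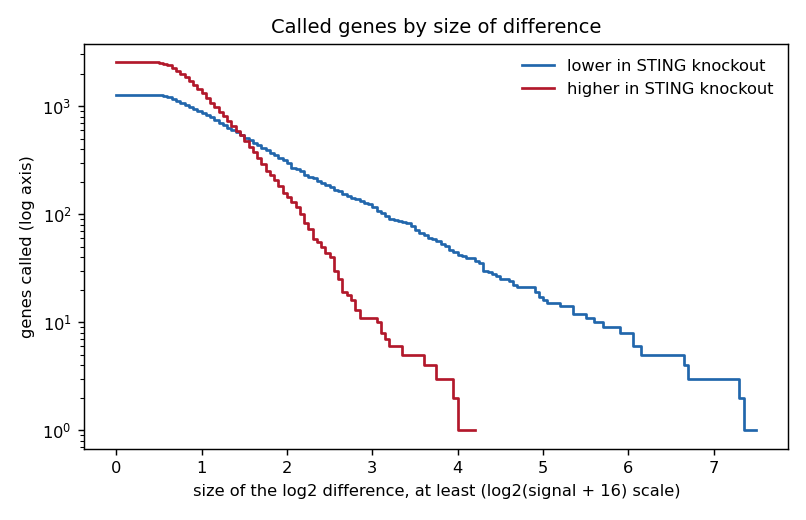
The number of called genes (log axis) whose log2 difference is at least the size on the horizontal axis, for genes lower (blue) and higher (red) in STING knockout cells. The higher genes start from more (2536 against 1272) but 11 of them reach 3 log2 units, against 116 lower genes.

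The split between lower and higher depends on how the arrays are brought to 1 scale. As deposited, the 75th percentile of the signal was 294.2 to 326.5 on the wild-type arrays and 376.6 to 406.5 on the knockout arrays, while the medians overlapped. Centring each array on its 75th percentile gave 4021 lower and 2209 higher probe sets, so that 35.5% of calls were higher in place of 64.5%, and the median gene moved from 0.06 to -0.23. Quantile normalization gave 2595 and 3231. All 2384 lower calls stayed with the 75th percentile centring, whereas 2209 of the 4336 higher calls did. That centring lowers every difference by the same amount, so it moves lower calls away from 0 by construction. No call changed sign under any setting. Settings that altered only the block, the variance model or the probe sets tested left each difference as it was. In those settings a sign could not change. The number of calls also rested on the variance model and on the pairs. Without the intensity trend of the variance 1195 probe sets were lower and 1442 higher, and with 1 number left out 1607 to 1744 were lower and 2399 to 2618 higher. Of the genes given below as not passing the test, Jak1, Xaf1, Ccr7, Nfkb2, Nfkbia, Socs3, Pmaip1, Pcna and Hspa5 were called lower with the 75th percentile centring. Counts of list members below are therefore given under these settings too where they differ by over 1.5 times and by at least 3 genes. List counts in the fit as reported are to be read against the 6.99% of genes that were lower and the 13.9% that were higher. These shares do not apply to counts under another setting. Those are to be read against that setting's own total, such as 1195 lower and 1442 higher of 45037 probe sets without the trend.

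The interferon genes were among the genes with the largest differences. Interferon beta, from Ifnb1, is the first product of the pathway. Ifnb1 read 21593, 5213 and 10275 in wild-type cells and 43.3, 62.5 and 48.8 in knockout cells, a difference of -7.29 ± 0.40 (adjusted p = 0.0002). Ifna2, an interferon alpha gene, read 11488, 787 and 3286 against 2.53, 4.63 and 3.86. It differed by -7.31 ± 0.64 (adjusted p = 0.00076). No knockout array came near any wild-type array for either gene, and wild-type array 1 was the highest and array 2 the lowest for both. Ifna4 (-6.67 ± 0.64) and Ifna5 (-6.00 ± 0.68) had the same order of wild-type arrays. Of 8 measured interferon genes, 6 were lower and 0 higher, with a median of -4.71. The other called members were Ifna9 (1523, 85.9 and 117 against 2.11, 3.24 and 32.7) and Ifnab (1268, 82.3 and 332 against 15.7, 59 and 18.5). Ifna9 lost its call without number 1 (adjusted p = 0.056), number 2 (0.08) or the pairing (0.054), and Ifnab without number 1 (0.16) or 3 (0.095) or with quantile normalization (0.051). Both lost it with an offset of 64, no trend or a robust variance estimate (0.073 to 0.13). The interferon alpha genes are near-identical copies, so a probe set may also take up RNA of its neighbours. Whether the knockout signals exceed background is unknown here, and the offset of 16 sets part of each difference. An offset of 64 gave -6.52 for Ifnb1 and -5.57 for Ifna2, and an offset of 1 gave -7.66 and -9.40.

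At the probe sets that stand for the genes, the largest difference among the called genes was that of Cxcl9, a chemokine that attracts activated T cells through the receptor CXCR3. Cxcl9 read 27808, 9867 and 12615 in wild-type cells and 198, 9.22 and 77.5 in the knockout, a difference of -7.57 ± 0.30 (adjusted p = 7.9e-05). That rank depends on the offset: with an offset of 1 Cxcl9 differed by -8.12, less than Ifna2 (-9.40) and Ifna4 (-8.51). Cxcl11, which binds the same receptor, read 26454, 24207 and 24425 against 373, 172 and 202 (-6.64 ± 0.19, adjusted p = 5e-05). Cxcl10, the third of these ligands, kept more signal in the knockout, at 7099, 681 and 1316 against 24899 to 29157, and differed by -3.86 ± 0.51. At these probe sets knockout array 1 was the highest knockout array and array 2 the lowest for all 3 ligands. The other Cxcl9 probe set read 9537, 1745 and 1829 against 47.1, 35.5 and 64.2 (-5.62 ± 0.46, adjusted p = 0.00066), with array 3 the highest knockout array. In all, 11 of 34 chemokines were lower and 0 higher (7 and 3 without number 1), with a median of -0.41. The monocyte attractants Ccl12 (-4.47 ± 0.18) and Ccl8 (-3.85 ± 0.27) and the T cell attractant Ccl5 (-1.63 ± 0.16) were lower as well. Ccl22 (6705, 7338 and 5639 against 4133, 6877 and 8133) and the neutrophil attractant Cxcl2 (15868 to 24276 against 16502 to 22399) did not pass the test, and their groups overlapped. The Cxcl10 call ended with a robust variance estimate (adjusted p = 0.07).

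**Figure D2:**
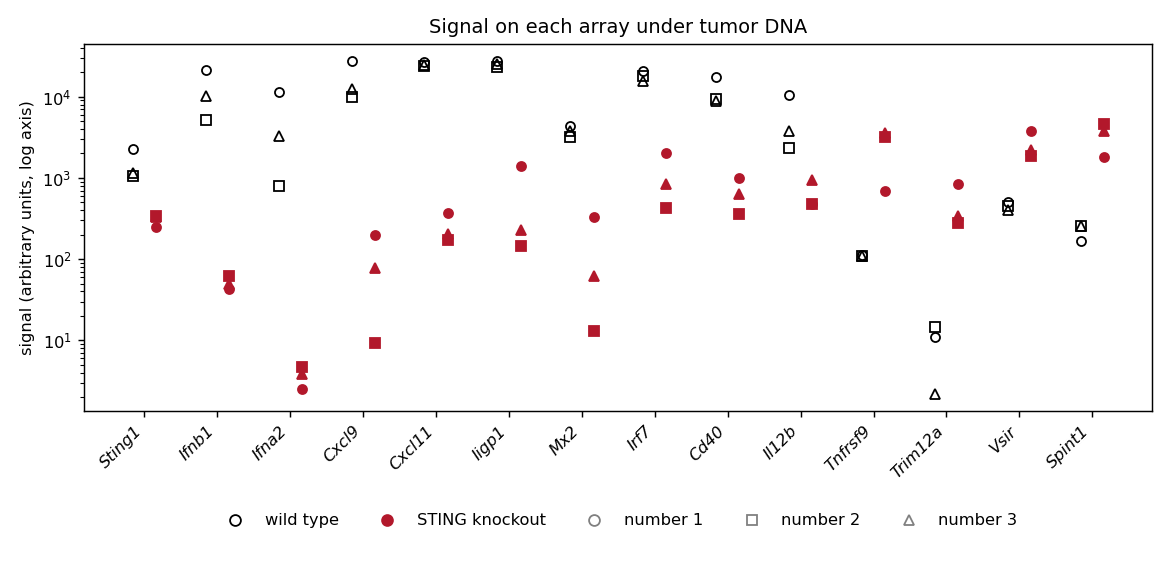
Signal of 14 genes (log axis, arbitrary units) on each of the 6 arrays, wild type in open black and STING knockout in filled red symbols, with the number in the title given by the symbol's shape. For Sting1 through Il12b all knockout symbols lie below all wild-type symbols, and for Tnfrsf9, Trim12a, Vsir and Spint1 they lie above.

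Promoters of 4 genes with large falls in knockout cells are shown because they carry the letters GAAANNGAA, the core of the interferon-stimulated response element that IRF3 and IRF7 bind. The 4 genes are those with the largest differences among the 15 leading lower genes that hold a match. Of those 15, 10 had a promoter in the table, and 6 of the 10 held one. Each line is the 250 bases before the start of the RefSeq transcript (GRCm38.p6), on the gene's own strand, with the match in capitals. Cxcl9 lies at chr5:92328080-92328329 on the minus strand, Ifna2 at chr4:88683780-88684029 on the minus strand, Ifna4 at chr4:88841566-88841815 on the plus strand and Ifna5 at chr4:88835275-88835524 on the plus strand.
Cxcl9: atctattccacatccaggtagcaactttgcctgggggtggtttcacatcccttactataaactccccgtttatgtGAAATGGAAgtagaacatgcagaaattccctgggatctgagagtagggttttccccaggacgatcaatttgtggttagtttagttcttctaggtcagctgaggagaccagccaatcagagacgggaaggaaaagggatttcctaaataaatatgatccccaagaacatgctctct
Ifna2: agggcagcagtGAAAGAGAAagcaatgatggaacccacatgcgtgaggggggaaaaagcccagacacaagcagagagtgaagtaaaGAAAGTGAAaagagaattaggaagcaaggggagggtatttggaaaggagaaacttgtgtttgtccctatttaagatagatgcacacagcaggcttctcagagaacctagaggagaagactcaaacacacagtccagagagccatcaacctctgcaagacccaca
Ifna4: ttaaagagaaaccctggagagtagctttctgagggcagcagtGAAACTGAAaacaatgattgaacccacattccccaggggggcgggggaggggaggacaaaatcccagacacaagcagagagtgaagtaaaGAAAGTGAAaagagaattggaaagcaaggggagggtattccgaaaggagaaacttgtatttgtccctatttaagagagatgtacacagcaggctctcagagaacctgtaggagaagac
Ifna5: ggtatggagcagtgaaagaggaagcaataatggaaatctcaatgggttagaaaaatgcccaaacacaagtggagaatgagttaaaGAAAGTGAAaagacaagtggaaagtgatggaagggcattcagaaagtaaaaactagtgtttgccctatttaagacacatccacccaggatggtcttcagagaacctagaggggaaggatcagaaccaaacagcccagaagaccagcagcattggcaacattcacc
The match began 175 bases before the start in Cxcl9, 239 and 164 before it in Ifna2, 208 and 118 in Ifna4, and 165 in Ifna5.

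Over the 14452 tested genes with a RefSeq promoter (250 bases before to 50 after the start, the first listed promoter of each gene), 7.36% held GAAANNGAA on either strand. The share was 26.9% (59 of 219) among genes lower by at least 2 log2 units, 9.19% among those lower by 1 to 2, 11.4% among those lower by less than 1, and 5.36% among the higher genes. The gamma-activated sequence TTCNNNGAA was found in 12.3% of the genes lower by at least 2 units and 7.29% of all genes. The core of the kappaB site GGNNNTTCC was found in 26.9% and 20.4%. A kappaB match can overlap one of the gamma-activated sequence. These shares describe letters in a window, were not tested, and count members of gene families that share sequence.

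**Figure D3:**
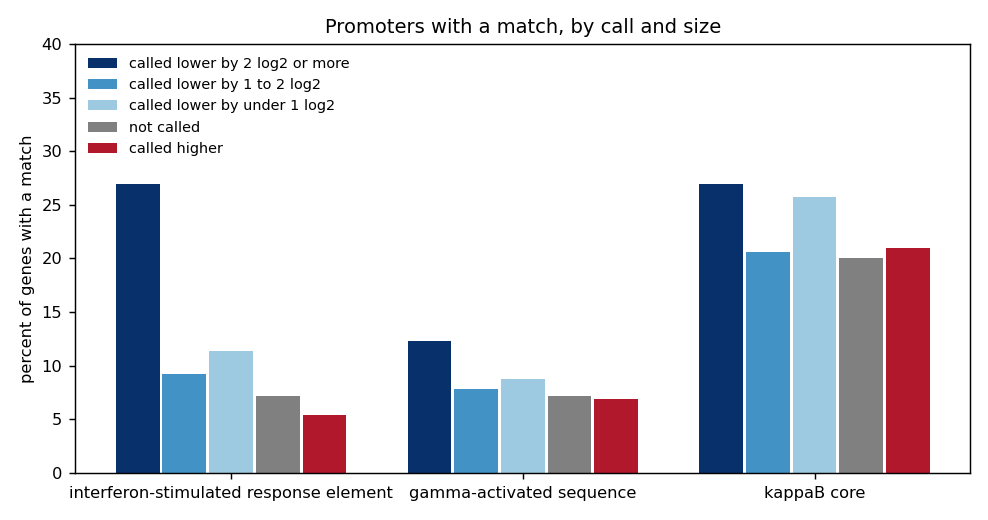
Percent of genes whose 300-base RefSeq promoter holds each motif on either strand, by call and by size of the log2 difference. For the interferon-stimulated response element the bar of genes lower by at least 2 log2 units reaches 26.9%, against 7.15% of genes not called.

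Most genes of RNA sensing in the cytosol were lower in the knockout. Of 19 genes of cytosolic RNA sensing, 13 were lower and 2 higher (8 and 1 without the trend), with a median of -2.05. Ifih1, the RNA sensor MDA5, read 23845, 21773 and 20868 in wild-type cells and 5660, 1117 and 1799 in knockout cells (-3.29 ± 0.36, adjusted p = 0.0017). Ddx58, the sensor RIG-I, differed by -2.72 ± 0.29, Dhx58 (LGP2) by -3.40 ± 0.40 and the kinase Eif2ak2 (PKR) by -2.19 ± 0.16. Oasl1, which restrains Irf7 translation, fell furthest, from 19057 to 22126 down to 358 to 1343 (-5.01 ± 0.30). Mavs, the adaptor of these sensors, did not pass the test (0.82 ± 0.28, adjusted p = 0.10), and Nlrx1, a mitochondrial regulator of that adaptor, was higher (1.27 ± 0.20).

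Of 31 genes of cytosolic DNA sensing and the STING relay, 9 were lower and 7 higher. The 7 became 2 with the 75th percentile centring or quantile normalization, 1 without the trend and 2 to 4 with 1 number left out. DNA-binding proteins of the interferon-inducible 200 family were among the lower genes: Ifi204 read 7025, 7468 and 7289 against 1526, 220 and 666 (-3.53 ± 0.44), and Mndal differed by -2.50 ± 0.36. The inflammasome sensor Aim2 was lower as well, at 1626 to 1898 against 329 to 497 (adjusted p = 0.00099). Zbp1, a sensor of Z-form nucleic acid that can trigger necroptosis, differed by -3.03 ± 0.27, and Samhd1, which degrades deoxynucleotides, by -2.15 ± 0.17. Cgas itself read 1860, 1467 and 1258 against 945, 646 and 837 (-0.90 ± 0.16, adjusted p = 0.01), and its call ended without number 2 (adjusted p = 0.054) and without the intensity trend (0.08). Another Cgas probe set was lower as well, at 1377, 1450 and 1001 against 449, 527 and 454 (-1.38 ± 0.16, adjusted p = 0.002). Tbk1, the kinase next to STING, was lower by -0.98 ± 0.13, a call that ended without the trend (0.055). Irf3, its substrate, read 705, 837 and 804 against 1259, 1081 and 1087 and did not pass the test (0.54 ± 0.15, adjusted p = 0.06), although the groups did not overlap. Another Irf3 probe set was higher (0.92 ± 0.23, adjusted p = 0.037), and the first was called with all 9 arrays in the fit, with a filter on low signal and with 1 probe set tested per gene. Xrcc6 (Ku70), a DNA end-binding protein, was higher by 1.49 ± 0.26, while its other probe set, dim in both groups, differed by -0.28.

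Of 23 Toll-like receptors and their adaptors, 5 were lower and 1 higher (9 and 1 with the 75th percentile centring, 2 and 0 without the trend). The endosomal RNA receptors Tlr3 and Tlr7 were lower: Tlr3 read 3938, 3838 and 4166 against 426, 107 and 149 (-4.27 ± 0.32, adjusted p = 0.0005) and Tlr7 differed by -1.71 ± 0.19. Tlr9, the endosomal receptor for DNA, read 44.7 to 108 against 57.9 to 91, close to the median of the arrays, and did not pass the test (0.04 ± 0.38). The coreceptor Cd14 was read near the top of the scale in both groups (26652 to 30680 against 23353 to 26123) and did not pass it either.

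Antiviral effector genes were mostly lower. Of 36 measured, 29 were lower and 0 higher, with a median of -2.35. Mx2, a GTPase of the antiviral Mx family, read 4345, 3164 and 3768 against 331, 13.2 and 61.2 (-5.34 ± 0.50, adjusted p = 0.00099). Isg20, an RNA exonuclease, read 14830 to 18711 against 322 to 1093 (-4.87 ± 0.28), and Ch25h, which makes 25-hydroxycholesterol, read 13421 to 18806 against 614 to 1424 (-4.07 ± 0.16). Ch25h was lowest on knockout array 1, unlike the others named here. The tetherin gene Bst2 (-2.40 ± 0.22), Pml (-3.05 ± 0.25) and Daxx (-2.95 ± 0.23) were lower too. The IFIT genes, whose products bind viral RNA, kept the most signal on knockout array 1: Ifit1 read 27540, 25166 and 25553 against 6499, 573 and 1681 (-3.80 ± 0.52), and Ifit3 differed by -4.22 ± 0.58. With a robust variance estimate both calls ended (adjusted p = 0.076 and 0.099). Xaf1, a proapoptotic interferon-induced gene, depended on its probe set: the brighter read 3010 to 3494 against 1055 to 3412 and did not pass the test (-0.81 ± 0.31), and the other read 18819 to 21687 against 46.7 to 72.4 (-8.04 ± 0.17).

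The GTPases that attack vacuoles of intracellular pathogens were lower too. Of 13 guanylate-binding proteins and immunity-related GTPases, 12 were lower and 1, Irgq, was higher, with a median of -3.45. Iigp1 read 27698, 23232 and 25141 against 1419, 144 and 231 (-6.04 ± 0.49, adjusted p = 0.00061), and Gbp6 read 11246, 8938 and 9955 against 853, 99 and 141 (-5.32 ± 0.45). Gbp7 (-2.65 ± 0.15), Gbp8 (-3.42 ± 0.24), Igtp (-3.59 ± 0.33) and Irgm1 (-3.34 ± 0.35) followed. Irgq, at 104 to 179 against 244 to 290, lost its call without any 1 of the 3 numbers (adjusted p up to 0.13), and with the 75th percentile centring (0.087), quantile normalization (0.084) or no trend (0.069).

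Enzymes of ISG15 conjugation, which attach this ubiquitin-like protein to other proteins, had 8 of 11 members lower and 0 higher. The activating enzyme Uba7 (-3.38 ± 0.28), the conjugating enzyme Ube2l6 (-3.01 ± 0.29) and the deconjugase Usp18, a brake on the interferon receptor (-3.48 ± 0.39), were among them. Of 9 Schlafen genes 6 were lower, led by Slfn4 (14945 to 17024 against 303 to 1180, -4.88 ± 0.31), and of 15 PARP genes 8 were lower and 1 higher. Parp14 (-2.85 ± 0.36), Parp11 (-2.62 ± 0.16), Parp12 (-2.51 ± 0.29) and Parp9 (-2.15 ± 0.26), which add ADP-ribose to proteins and are interferon-induced, were lower. Parp1, the DNA-damage enzyme, was higher, at 521 to 712 against 1014 to 1298 (adjusted p = 0.0059), and lost its call without the intensity trend (0.058).

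The 3 pairs of arrays did not carry the interferons and the interferon-induced genes to the same extent. The interferon list differed by a median of -7.37 in pair 1, -3.30 in pair 2 and -4.41 in pair 3. Antiviral effectors instead differed by -1.46, -3.07 and -2.37, and the guanylate-binding protein and GTPase list by -2.34, -4.38 and -3.98. Pair 1 thus had the largest difference in the first list and the smallest in the other two. That order did not hold for every list of interferon-induced genes: ISG15 conjugation (-1.17, -1.43 and -0.99), the immunoproteasome (-1.12, -1.28 and -0.98) and class I genes (-0.48, -0.64 and -0.42) had the smallest difference in pair 3. The summed signal of the antiviral list was 465070 to 535908 on the wild-type arrays, and 175758, 69428 and 101472 on knockout arrays 1, 2 and 3. The summed signal of the interferon list was 49963, 7212 and 17006 on wild-type arrays 1, 2 and 3, and 110, 194 and 186 on the knockout arrays, where these low signals may not exceed background. Among the 298 genes lower by at least 2 log2 units, knockout array 1 held the highest knockout value in 199 and array 2 the lowest in 173. Number 1 also differed on a hybridisation spike-in (BioB), which read 381.71 and 431.14 on its arrays and 90.91 to 157.36 on the others. The part of that difference in these results was not tested.

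**Figure D4:**
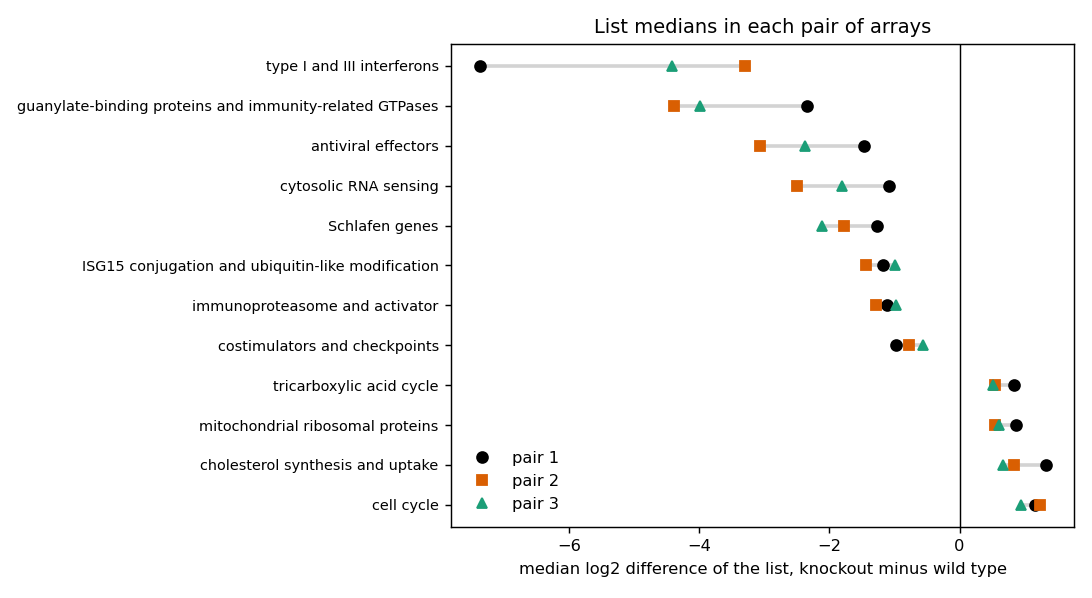
Median log2 difference, knockout minus wild type, of 12 gene lists in each of the 3 pairs of arrays. The interferon list lies farthest from 0 in pair 1 (-7.37), while the antiviral and GTPase lists lie nearest to 0 in pair 1 (-1.46 and -2.34).

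Components that carry the interferon signal were in part lower. Of 20 interferon receptors, kinases and STATs, 7 were lower and 2 higher (4 and 1 without number 2 or number 3, 3 and 1 without the trend, 11 and 1 with the 75th percentile centring). Stat2, which is found in the complex that interferon activates, read 2479, 2137 and 2735 against 545, 263 and 219 (-2.88 ± 0.25, adjusted p = 0.00077). The kinases Jak2 (-1.43 ± 0.14) and Tyk2 (-1.30 ± 0.16) were lower, and Jak1 did not pass the test (-0.26 ± 0.14). Ifngr1, a chain of the receptor for interferon gamma, was higher, at 993 to 1318 against 2463 to 3888 (1.38 ± 0.19). Among the regulatory factors (IRFs), 5 of 8 were lower and 1 was higher (2 and 0 without the trend). Irf7, which amplifies interferon alpha production, read 20973, 17970 and 15643 against 2002, 427 and 852 (-4.30 ± 0.32, adjusted p = 0.0005), and Irf1 differed by -2.48 ± 0.26. Irf8, a factor of dendritic cell development, read 2042 to 4121 against 1883 to 2791 and did not pass the test (-0.21 ± 0.22).

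Inhibitors of cytokine signalling held calls both ways, with 5 of 25 lower and 4 higher (8 and 4 with the 75th percentile centring, 2 and 3 without the trend). The share of higher calls lay near the 13.9% over all genes. Socs1, the feedback inhibitor of Janus kinases, read 2017 to 2552 in wild-type cells and 99.6 to 210 in knockout cells (-3.72 ± 0.25, adjusted p = 0.00035), and the ubiquitin ligase Peli1 read 6337 to 10592 against 892 to 1534 (-2.88 ± 0.13). Socs3 read 3698, 3768 and 8899 against 694, 3836 and 2990, overlapped between groups and did not pass the test (adjusted p = 0.067). Another Socs3 probe set was lower (-1.03 ± 0.19, adjusted p = 0.012), and the first was called with a filter on low signal, with the 75th percentile centring and without number 2. Socs5 was higher (2.04 ± 0.22), as were Zfp36l1 (1.34 ± 0.14) and Zfp36l2 (1.22 ± 0.13), which hasten the decay of cytokine mRNA.

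A minority of the interleukin genes passed the test. Of 30 interleukins and colony-stimulating factors 7 were lower and 1 higher (11 and 1 with the 75th percentile centring, 3 and 1 without the trend). For 14 of the 30, neither group had all 3 values above the medians of the arrays. Il12b, a subunit of interleukin 12 and 23, read 10441, 2317 and 3813 against 479, 471 and 939 (-2.89 ± 0.42, adjusted p = 0.0047). Il15, which sustains natural killer and memory T cells, read 4646 to 7894 against 251 to 1000 (-3.74 ± 0.24), and its presenting receptor chain Il15ra differed by a similar amount (-3.63 ± 0.16). Il6 read 31439, 12207 and 23831 against 922, 3738 and 4343 (-3.07 ± 0.55, adjusted p = 0.01), with its lowest knockout value on array 1. The Il6 call ended with a robust variance estimate (0.14) and without the trend (0.066). Il1b, the inflammasome cytokine, read 11309, 7705 and 15956 against 5893, 12035 and 13791, overlapped and did not pass the test (-0.17 ± 0.27). Il16 was higher (1.19 ± 0.18), while 1 of its other probe sets, dim in both groups, differed by -0.44.

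Of 32 cytokine receptors, 8 were lower and 2 higher (5 and 0 without the trend). The receptor chains Il13ra1 (-2.42 ± 0.13) and Il12rb1 (-2.38 ± 0.22), and Il18bp (-2.78 ± 0.21), a secreted blocker of interleukin 18, were lower. Csf2ra and Csf2rb, the receptor chains for GM-CSF on which these cultures grew, read 4499 to 5407 against 4097 to 5096 and 23058 to 28271 against 22790 to 26563, and did not pass the test.

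In the TNF superfamily 9 of 32 ligands and receptors were lower and 2 higher. Tnfsf10, the death ligand TRAIL, read 3975, 3271 and 4286 against 257, 43.9 and 59.1 (-5.16 ± 0.37, adjusted p = 0.00043), and Cd40, through which T cells license dendritic cells, read 17487, 9243 and 8892 against 993, 364 and 636 (-4.16 ± 0.18, adjusted p = 8.7e-05). The T cell costimulatory ligands Tnfsf8 (-2.62 ± 0.18) and Tnfsf4 (-2.34 ± 0.22) and the death receptor Fas (-1.81 ± 0.19) were lower. Tnf read 16144, 4869 and 8181 against 1933, 2350 and 2225 (-1.99 ± 0.33), and its call ended without the trend (adjusted p = 0.06). Tnfrsf9 (4-1BB), a costimulatory receptor, went the other way, at 114, 109 and 108 against 694, 3219 and 3544 (3.99 ± 0.43, adjusted p = 0.0017). Of its other probe sets 1 differed by 5.67 ± 0.55 and 1, dim in both groups, by -1.03.

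Of 28 costimulators and checkpoints, 12 were lower and 1 higher. Cd86, the ligand of CD28, read 19977, 13463 and 13881 against 4210, 3801 and 5096 (-1.84 ± 0.17, adjusted p = 0.00099), whereas Cd80, its partner, read 1090 to 1626 against 431 to 1801, overlapped and did not pass the test. Cd274, the inhibitory ligand PD-L1, read 13232 to 18928 against 3167 to 5588 (-1.85 ± 0.13). Cd69, an activation marker that keeps cells in lymph nodes, differed by -4.22 ± 0.19 and Slamf7 by -3.85 ± 0.23. The galectin gene Lgals9 (-2.26 ± 0.13) and the adhesion ligand Icam1 (-1.10 ± 0.12) were lower. Vsir (VISTA), an inhibitory checkpoint, was the higher member, at 501, 450 and 408 against 3765, 1842 and 2184 (2.41 ± 0.19, adjusted p = 0.00055).

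Genes of antigen presentation by class I were lower. Of 16 class I genes, 9 were lower and 0 higher: the peptide transporter Tap1 read 7910 to 8588 against 753 to 1906 (-2.85 ± 0.22), Tap2 differed by -2.14 ± 0.17, Tapbpl by -2.47 ± 0.14 and Nlrc5, the transactivator of class I genes, by -3.05 ± 0.26. B2m, the light chain of every class I molecule, read 32126 to 32740 against 20831 to 24249 (-0.50 ± 0.14, adjusted p = 0.049), and its call ended without any 1 of the 3 numbers (up to 0.18) and with quantile normalization (0.25), median centring (0.12) or no trend (0.19). Of 6 immunoproteasome and activator genes 5 were lower, with Psmb9 at -2.27 ± 0.19, Psmb10 at -1.89 ± 0.19 and Psmb8 at -1.26 ± 0.13, while 0 of 31 genes of the constitutive proteasome were lower and 6 were higher (4 lower and 0 higher with the 75th percentile centring, 0 to 2 higher with median centring, no trend or 1 number left out). Of 19 class II genes 2 were lower and 2 higher (5 and 1 with the 75th percentile centring). H2-Aa read 27556 to 35242 against 20402 to 28791, Cd74 20711 to 23790 against 16325 to 19618, and the transactivator Ciita 176 to 400 against 228 to 457, and none of them passed the test. Marchf1, the ligase that removes class II and CD86 from the surface, was lower (-1.12 ± 0.13). Of its other probe sets 1 was lower (-0.77 ± 0.14, adjusted p = 0.012) and 1, dim in both groups, differed by 0.03.

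Intracellular signalling lists held calls in both directions. The share of higher calls lay under the 13.9% over all genes for NF-kappaB and near it for the MAP kinase list. Among 29 genes of NF-kappaB, 11 were lower and 2 higher (19 and 0 with the 75th percentile centring, 6 and 2 without the pairing, 7 and 1 without number 1, 6 and 1 without number 3, 2 and 0 without the trend). The feedback inhibitors Tnfaip3 (A20, -1.30 ± 0.14) and Tank (-1.07 ± 0.13) were lower, while the subunits Nfkb2 and Relb did not pass the test. The inhibitor Nfkbia did not pass it at its brightest probe set (23580 to 27679 against 17176 to 21833), but 2 of its other probe sets were lower (-0.61 ± 0.14 and -0.55 ± 0.13, adjusted p = 0.024 and 0.034). Of 29 MAP kinases and their phosphatases 9 were lower and 5 higher (5 and 4 without number 1, 3 and 4 without the trend). Map2k1 read 10376 to 11474 against 4765 to 5163 (-1.17 ± 0.12), and the phosphatase Dusp10 differed by -1.65 ± 0.20, while Mapkapk3 (1.72 ± 0.14), Dusp3 (1.52 ± 0.15) and Dusp7 (1.55 ± 0.25) were higher. Of 28 immediate early and AP-1 genes 5 were lower and 8 higher (7 and 5 with the 75th percentile centring, 3 and 5 without number 3, 1 and 2 without the trend). The BATF factors, which pair with Jun proteins, were split: Batf2 read 1550 to 1796 against 146 to 247 (-3.13 ± 0.18) and Batf read 277 to 456 against 974 to 1014 (1.42 ± 0.18). Myc was higher (1.22 ± 0.16), and Jun did not pass the test at its brighter probe set (0.12 ± 0.13) but was higher at the other (0.57 ± 0.14, adjusted p = 0.035).

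Genes of programmed cell death were lower in 12 of 25 cases and higher in 2. Mlkl, which ruptures the membrane in necroptosis, read 6829, 5763 and 5947 against 969, 718 and 725 (-2.93 ± 0.13, adjusted p = 9.4e-05). The inflammatory caspases Casp4 (-2.52 ± 0.19) and Casp1 (-1.83 ± 0.21), the apoptosis initiator Casp8 (-1.22 ± 0.12), its regulator Cflar (-1.83 ± 0.13) and the pore former Gsdmd (-1.16 ± 0.13) were lower. Among 19 genes of the BCL2 family 2 were lower and 1 higher. The proapoptotic genes Bbc3, Pmaip1 and Bcl2l11 did not pass the test at their brightest probe sets, though another Bcl2l11 probe set was lower (-1.08 ± 0.23, adjusted p = 0.021). Bmf was higher at its brightest probe set (105 to 156 against 464 to 874, 2.22 ± 0.28) but lower at another (-1.79 ± 0.39, adjusted p = 0.023).

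Of 31 p53 targets 9 were lower and 11 higher (6 higher with the 75th percentile centring or quantile normalization, 7 without number 1, 5 without number 2, 4 without the trend). Ccnd2, a cyclin of the D type, read 18883 to 19780 against 3242 to 6655 (-1.94 ± 0.21), with all 6 of its other probe sets called in the same direction, and Mdm2, the inhibitor of p53, differed by -1.30 ± 0.16. Sesn1, a stress-induced inhibitor of growth signalling, was higher, at 129 to 163 against 541 to 1536 (2.36 ± 0.26), as was Zmat3 (1.99 ± 0.22). Inducible heat shock proteins were lower: Hspa1b read 12264, 12334 and 10150 against 1997, 1880 and 1817 (-2.59 ± 0.13, adjusted p = 0.00012) and Hspa1a differed by -1.89 ± 0.14, within a list of 16 in which 4 were lower and 3 higher (3 and 0 without the trend). Of 32 genes of the unfolded protein and integrated stress responses 3 were lower and 4 higher (0 and 2 without the trend). The stress kinase genes Eif2ak3 (1.45 ± 0.18) and Eif2ak4 (2.43 ± 0.37) were higher, the former with another probe set, dim in both groups, at -0.23. The chaperone Hspa5 did not pass the test (-0.39 ± 0.15).

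Among enzymes of inflammatory metabolism the lists went different ways. Of 18 genes of arginine, tryptophan, itaconate and NAD metabolism, 8 were lower and 4 higher (4 and 1 without the trend). Nos2, the inducible nitric oxide synthase, read 208, 284 and 438 against 2.15, 6.53 and 4.36 (-3.95 ± 0.35, adjusted p = 0.00081). Gch1, which makes the cofactor of that enzyme, read 17427 to 18102 against 4848 to 6065 (-1.67 ± 0.13), while Spr, a later step of the same cofactor, was higher (1.75 ± 0.20). Kynu, of tryptophan breakdown (-2.67 ± 0.22), and Nampt, of NAD salvage (-1.05 ± 0.13), were lower. The tryptophan oxygenase Ido1 read 49.3 to 67.4 against 17.2 to 49.6 and did not pass the test. In glycolysis 8 of 27 genes were lower and 2 higher (5 and 1 without number 1, 4 and 0 without the trend), among the lower ones the hexokinase Hk3 (-1.58 ± 0.17) and the glucose transporter Slc2a6 (-1.26 ± 0.15), while Ldha did not pass the test (20075 to 24947 against 14711 to 21147). Of 21 eicosanoid genes 2 were lower and 7 higher (2 and 4 with the 75th percentile centring, 1 and 3 without the trend). The prostaglandin E synthase Ptges read 1155, 2378 and 2299 against 173, 373 and 468 (-2.51 ± 0.15), and the receptor gene Ptger4 was higher (1.18 ± 0.12). Ptgs2 (cyclooxygenase 2) read 12454, 910 and 4564 against 430, 670 and 733, and its call (adjusted p = 0.041) ended without number 1 (0.084) or number 3 (0.07), without the pairing (0.067), with an offset of 64 (0.06), without the trend (0.13) and with a robust variance estimate (0.24).

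**Figure D5:**
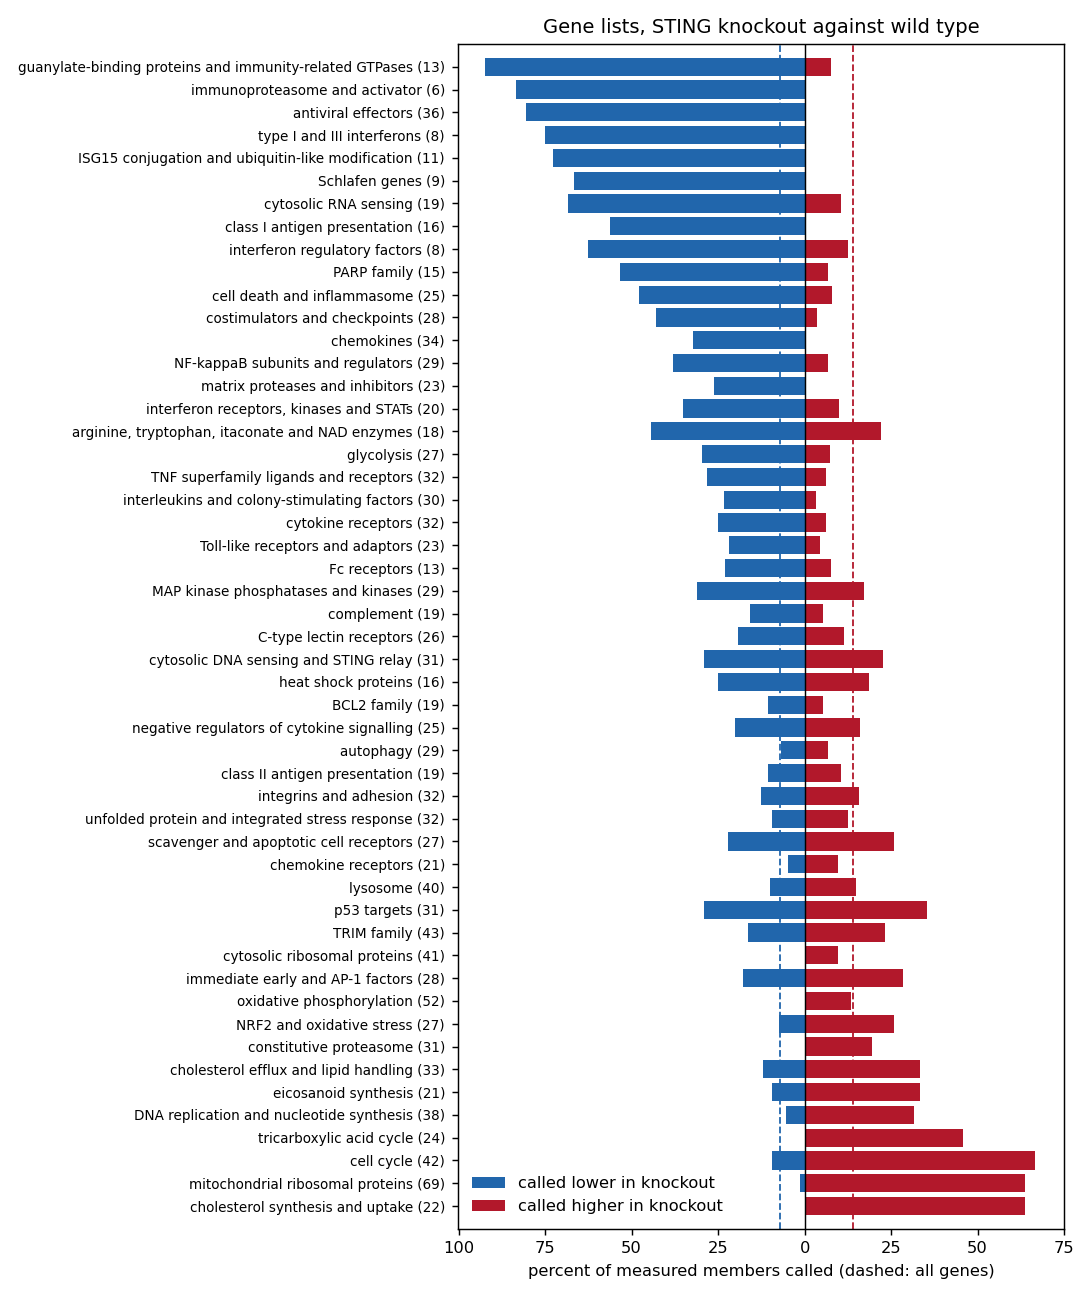
Percent of the measured members of each of 51 gene lists called lower (blue, to the left) and higher (red, to the right) in STING knockout cells, with the number measured in brackets. Dashed lines mark the shares over all genes, 6.99% lower and 13.9% higher, which the GTPase, immunoproteasome and antiviral lists exceed on the left, and the cholesterol, mitochondrial ribosome and cell cycle lists on the right.

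Genes of cell division were higher in the knockout. Of 42 cell cycle genes, 28 were higher and 4 lower, with a median of 1.12, and 18 were higher without number 2. Without the pairing 11 were higher and 3 lower, and the levels of several followed the number: Cdc20, an activator of mitotic exit, read 300, 498 and 159 in wild-type cells and 1797, 3004 and 835 in the knockout (2.45 ± 0.15, adjusted p = 0.00028), highest on number 2 and lowest on number 3 in both groups. Ccna2, the cyclin of S phase, read 166, 420 and 127 against 830, 1736 and 495 (2.02 ± 0.17) with the same order. Mki67, the proliferation antigen, read 905, 743 and 673 against 1032, 2349 and 642, overlapped and did not pass the test (0.59 ± 0.31). The 4 lower genes included Ccnd1, which starts the cycle (2376, 7681 and 6390 against 740, 1576 and 1541, -1.99 ± 0.15), and Rbl1, an inhibitor of E2F factors (-1.73 ± 0.16), 1 of whose other probe sets, dim in both groups, differed by 0.95. Of 38 genes of DNA replication and nucleotide synthesis, 12 were higher and 2 lower, but 5 were higher with the 75th percentile centring or quantile normalization, 3 to 6 with 1 number left out, 3 without the trend and 0 without the pairing. The replication clamp Pcna did not pass the test (15568 to 18028 against 11601 to 14480).

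Genes of cholesterol synthesis were higher as well. Of 22 genes of cholesterol synthesis and uptake, 14 were higher and 0 lower, with a median of 0.95, and 9 were higher with the 75th percentile centring, 8 without the pairing and 4 without the trend. Hmgcs1, an early enzyme of the pathway, read 1712, 1398 and 1502 against 7211, 3031 and 3762 (2.82-fold, adjusted p = 0.0032). Lpin1, a lipid phosphatase that the list counts but that is no step of cholesterol synthesis, read 95.7 to 181 against 552 to 848 (2.27 ± 0.28). Both were highest on knockout array 1. Of 33 genes of cholesterol efflux and lipid handling 11 were higher and 4 lower (4 and 2 without the trend). Fasn, the fatty acid synthase, read 104 to 185 against 577 to 806 (2.20 ± 0.19), the desaturase Fads1 differed by 1.95 ± 0.22 and the lipid-sensing nuclear receptor Pparg, at 22.2 to 57.8 against 139 to 387, by 2.35 ± 0.29. The fatty acid carrier Fabp3 was lower (-2.98 ± 0.28), and the cholesterol exporter Abca1 did not pass the test (0.01 ± 0.13).

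Ribosomal proteins of mitochondria were higher in 44 of 69 cases and lower in 1, with a median of 0.67. With the 75th percentile centring 20 were higher and 4 lower, without the intensity trend 6 were higher and 0 lower, and without number 1 or 3, or without the pairing, 22 to 29 were higher. Mrps18b read 171, 243 and 175 in wild-type cells and 874, 1550 and 1470 in knockout cells (2.60 ± 0.19, adjusted p = 0.00044), Mrpl12 differed by 1.89 ± 0.14 and Mrpl41 by 1.65 ± 0.18. Of 24 genes listed for the tricarboxylic acid cycle, which include the cytosolic enzymes Got1 and Idh1, 11 were higher and 0 lower (6 higher with the 75th percentile centring, 7 without number 1, 1 without the trend). Among them was Idh3a, a subunit of an isocitrate dehydrogenase (503, 1065 and 1315 against 1636, 2720 and 2451, 1.30 ± 0.17). Another Idh3a probe set, at 8.96 to 82.5 units, differed by -0.30. Of 52 oxidative phosphorylation genes 7 were higher, a share of about the background, but 1 with the 75th percentile centring or no trend, 2 and 3 without numbers 1 and 3, 4 without the pairing, and 18 with quantile normalization. Cytosolic ribosomal proteins had a median of 0.01, with 4 of 41 higher, led by Rps6 (290 to 405 against 1154 to 1379, 1.89 ± 0.15).

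Single genes with the largest rises came from several pathways. Spint1, an inhibitor of membrane serine proteases, read 169, 259 and 253 in wild-type cells and 1833, 4676 and 3812 in knockout cells (3.75 ± 0.18, adjusted p = 0.00012). The sialyltransferase St6gal1 differed by 2.82 ± 0.22, the cytoskeletal protein gene Fblim1 by 3.06 ± 0.17, Fcrls, of the Fc receptor-like family, by 3.06 ± 0.27, and the thioredoxin-like Prxl2c by 3.04 ± 0.22. Tacc2, a centrosome protein, read 5.45 to 6.57 against 260 to 392, so its size (3.93 ± 0.33) depends on the offset and was 2.45 and 5.53 with offsets of 64 and 1. Junos, Tmem273 and Gm36723 also started from low wild-type signals.

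At the probe sets that stand for the genes, the largest rise was in the TRIM family of ubiquitin ligases, many of them antiviral. That rise lay beside falls in neighbouring genes. Over 43 members 7 were lower and 10 higher (4 and 7 without the trend). Trim12a read 10.9, 14.5 and 2.18 in wild-type cells and 850, 281 and 340 in knockout cells, the largest rise among called genes that did not overlap between groups (4.19 ± 0.39, adjusted p = 0.00099). Its size depends on the offset: it was 2.79 with an offset of 64, less than that of Tnfrsf9 (3.57), and 5.70 with an offset of 1. Other probe sets of Tnfrsf9 (5.67 ± 0.55) and Fblim1 (4.43 ± 0.38) also rose further. The neighbours of Trim12a on chromosome 7, Trim5 (33.6, 18.2 and 3.89 against 553, 193 and 199, 3.19 ± 0.34) and Trim34a (105, 67.9 and 86.2 against 2372, 544 and 774, 3.33 ± 0.31), were also higher. The next 3 measured genes in order, Trim12c, Trim30a and Trim30d, were lower, by -1.57 ± 0.23, -1.70 ± 0.25 and -2.38 ± 0.33. Trim12c was named after its value was seen. The other Trim34a probe set read 659, 711 and 562 against 102, 21.9 and 80.2 (-3.12 ± 0.36, adjusted p = 0.0021), opposite to the first, and the other Trim12a probe set differed by 0.22 ± 0.34. These genes are close copies of one another, so a probe set may take up RNA of another copy, and their calls are uncertain in that respect. The calls of Trim12c and Trim30a ended without the trend (0.051 and 0.053). Away from this cluster, Trim21, an antibody receptor in the cytosol, was lower (-2.32 ± 0.19) and Trim27 higher (1.19 ± 0.13). Other Trim27 probe sets were called higher as well (0.94 ± 0.17 and 1.34 ± 0.14, adjusted p = 0.01 and 0.0014), and 1 was at -0.08.

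Surface receptors of myeloid cells were divided. Fcgr1, the high-affinity receptor for IgG, read 16709, 13644 and 11086 against 4911, 1624 and 2515 (-2.32 ± 0.24, adjusted p = 0.0013) and Fcgr4 differed by -1.72 ± 0.20, while the inhibitory Fcgr2b did not pass the test at its brightest probe set (0.42 ± 0.17) but was higher at 2 others (0.56 ± 0.14 and 0.57 ± 0.15, adjusted p = 0.039 and 0.047). In the scavenger receptor list 6 of 27 genes were lower and 7 higher (2 and 5 without the pairing, 4 and 4 without number 2, 7 and 4 with the 75th percentile centring, 6 and 4 with quantile normalization). Marco, a receptor for bacteria and particles (934 to 1396 against 2587 to 2962, 1.33 ± 0.17), and Trem2, a lipid receptor (1.51 ± 0.21), were higher. Complement factor B, from Cfb, was lower (11267 to 14708 against 1046 to 2548, -3.10 ± 0.20), in a list of 19 with 3 lower and 1 higher. Vcam1, an adhesion molecule for lymphocytes, read 3598, 607 and 1118 against 170, 102 and 139 (-3.18 ± 0.34). Among chemokine receptors 1 of 21 was lower and 2 were higher (4 and 2 with the 75th percentile centring), and Ccr7, which guides dendritic cells to lymph nodes, did not pass the test (6603, 2847 and 3705 against 2362, 2347 and 3161). Ccrl2, which presents a chemoattractant, was lower (-2.69 ± 0.16). Of 23 matrix proteases and inhibitors 6 were lower and 0 higher (2 without number 1 or the pairing, 3 with quantile normalization or no trend), with the collagenase Mmp13 (-1.36 ± 0.16) and the granzyme inhibitor Serpinb9 (-2.73 ± 0.20) among them, while Mmp12 did not pass the test (0.02 ± 0.15).

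Markers of the cultured cell type were called higher at about the share of all genes, and some markers of other cell types were lower. Of 15 measured dendritic cell markers 0 were lower and 2, Irf4 and Batf3, were higher (6.99% and 13.9% over all genes), and the list's median was -0.10. Irf4 (288 to 399 against 450 to 878) lost its call without number 2 (adjusted p = 0.089) or 3 (0.065) or the pairing (0.073), and Batf3 (114 to 204 against 326 to 444) without number 1 or 3 (0.079 each). Both lost it with quantile normalization or no trend, and Irf4 also with the 75th percentile centring. Cd209a, another such marker, read 17.6 to 184 against 51.7 to 106, near the median of the arrays. In the fit as reported, 2 of 10 macrophage and monocyte markers were lower and 1 was higher, with a median of 0.09. Of 13 mast cell and basophil markers 4 were lower and 0 higher (1 without number 1), and for 9 neither group had all 3 values above the array medians. The list's median was -0.42. Its summed signal, which included that of Hdc, was 1946 to 4038 on wild-type and 547 to 882 on knockout arrays. Hdc, which makes histamine, read 2050, 803 and 975 against 10.5, 58.8 and 64 (-4.46 ± 0.52). Of 12 neutrophil markers 4 were lower with the pairing, 0 without it or without the trend, and 1 without number 1 or 3, and their summed signal overlapped, at 38827 to 112789 and 50941 to 56938. Camp, a granule peptide, read 8179, 831 and 1613 against 1186, 424 and 399 (adjusted p = 0.0073, and 0.17 without the pairing). Of 5 eosinophil markers 2 were lower and 1 higher, and Prg2 read 10616, 557 and 2599 against 2863, 205 and 375 (adjusted p = 0.0026, and 0.34 without the pairing). Of 14 T and natural killer cell markers 2 were lower, among them the receptor Klrk1 (762 to 1438 against 81.9 to 105, -3.35 ± 0.24). For 10 of the 14, neither group had all 3 values above the array medians. The summed signal of that list, which included that of Klrk1, was 1371 to 2168 against 384 to 631, but its median difference was -0.05 and 12 members did not pass the test. Of 10 plasmacytoid dendritic cell markers 3 were lower, 1 of them Tcf4 (-1.90 ± 0.12), and 7 did not pass the test, with a list median of -0.18. Their summed signal of 22751 to 27955 against 4346 to 8660 included that of Bst2. Of 13 stromal and endothelial markers 2 were lower and 1 higher, with a median of 0.62. The higher one, the collagen gene Col1a1, read 288, 56.3 and 106 against 548, 134 and 417 and lost its call without the pairing (adjusted p = 0.26), the trend (0.061) or number 3 (0.096), and with quantile normalization (0.052) or the 75th percentile centring (0.05). Kdr, the receptor for VEGF, read 2739, 4240 and 5216 against 216, 130 and 238 (-4.26 ± 0.24). The part of such cells in the results above was not tested.

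Of 9010 genes with at least 2 probe sets, 1212 had at least 2 of them called. In 457 of these all calls were lower, in 737 all were higher, and in 18 they went both ways. Where the brightest probe set was called lower, every other probe set of the gene also lay below 0 in 625 of 758 genes, and where it was called higher, every other lay above 0 in 1168 of 1633. Of the genes with calls in both directions, those with the highest mean signal were Gsn, Zfand3, Snrpd3, Eif4e, Gatad2a and Cds2. Gsn, which severs actin, did not pass the test at its brightest probe set, read 3218, 7205 and 3334 against 5494, 8539 and 6931 at another (0.69 ± 0.17) and 190 to 399 against 58.5 to 93.8 at a further one (-1.47 ± 0.36).

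Called genes also lay side by side. In RefSeq order, 29 runs of at least 4 neighbouring measured genes were called in 1 direction, 7 of them lower and 22 higher. The lower runs were largely gene families already named: the interferon-inducible 200 genes on chromosome 1 (Aim2 through Mndal, 6 genes, median -3.02), the IFIT genes on chromosome 19 (5 genes, median -3.80, of which 4 lost their call with a robust variance estimate, at 0.076 to 0.16), the guanylate-binding proteins on chromosome 3 (4 genes, median -3.24) and the class I peptide genes Psmb9, Tap1, Psmb8 and Tap2 on chromosome 17 (median -2.21). A further run on chromosome 19 held Ms4a4c, Ms4a4b, Ms4a6c, Gm8369 and Ms4a6b (median -2.70), of a family of membrane proteins of leukocytes. Ms4a4c read 24048, 21251 and 17820 against 1950, 72 and 384. The calls of Ms4a4c, Ms4a6c and Ms4a6b ended with a robust variance estimate (adjusted p = 0.073 to 0.14), and those of Ms4a6c and Ms4a6b also without the pairing (0.079 and 0.11). The longest higher runs held 8 genes from Sebox to Ccnq on chromosome 11 (median 1.06) and 7 genes from Wdr12 to Cd28 on chromosome 1 (median 1.10). Wdr12, a ribosome assembly factor, read 109, 110 and 181 against 602, 724 and 639 (2.20 ± 0.22), and Cd28, better known from T cells, read 80.7, 112 and 76.1 against 371, 163 and 387. The Cd28 call ended without number 1 (adjusted p = 0.12) or 3 (0.11) and with the 75th percentile centring (0.054), quantile normalization (0.062) or no trend (0.085), and that of Sebox without number 1 (0.085) or 2 (0.083). Ift20 in the first run and Abi2 in the second lost theirs without any 1 number (0.075 to 0.17), without the pairing (0.051 and 0.052), without the trend (0.15 and 0.12), with quantile normalization (0.12 and 0.11) and with the 75th percentile centring (0.24 and 0.15). Tmem97, Carf and Raph1 lost theirs with 1 or 2 of the numbers left out, so at the brightest probe sets neither run was whole in those settings. Other probe sets of Abi2 (1.62 ± 0.20, adjusted p = 0.0024) and Cd28 (1.93 ± 0.33, adjusted p = 0.0091) were called higher. A further Abi2 probe set, dim in both groups, differed by -0.24.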

How the data were processed

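Messenger RNA was measured on Affymetrix arrays, 1 per sample. The deposited values are linear signal intensities made by the authors with MAS5 (per the submitters' processing notes). The MAS5 version is not given in the sources used here. The mean between percentiles 2 and 98 was 500 on each array, so arrays were already scaled. No detection calls were used, so a low signal cannot be told from background, and the number of arrays limits the precision.

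Of 45101 rows, 64 controls were removed. Of 45037 probe sets, 34945 carried 1 gene symbol in the platform annotation, 932 several and 9160 none, and only the first kind named a gene, through the probe set with the highest mean of log2(signal + 16). This scale understates changes of low signals. The choice by mean can pass over a probe set whose signal is high in 1 group only, as it did for Xaf1. The 6 arrays were fitted with limma 3.58.1 in R 4.3.3 (lmFit, eBayes with an intensity trend; 2 residual and 5.288 prior degrees of freedom), with the number in the title as a block. Tests are 2-sided, with Benjamini-Hochberg adjustment and a threshold of 0.05. The script was tested on simulated data. Deviations of same-numbered arrays from their group means correlated at 0.24, 0.13 and 0.058 over all probe sets, and those of differently numbered arrays at -0.21 to 0.094. The title number sets the pairing, and the labels do not say what it marks. Left out were the 3 media arrays, used in 1 alternative only.

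The genes named in the text are, by rule, the 15 largest called differences in each direction whose groups do not overlap and whose higher group lies above each array's median; in each list up to 4 called members per direction by adjusted p, and key members whatever their result; and the leading genes with calls in both directions, uneven pairs or long runs of neighbours. The members and lists were chosen with earlier results of these data known. Alternatives changed the block, the arrays fitted, a filter on low signal, the offset, the scaling, the variance model, the probe sets tested and the pairs included. Promoter sequences and gene order are from RefSeq (GRCm38.p6).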

Additional observations from a re-analysis of the deposited data

How the results depend on the processing

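In the fits as reported, 2384 probe sets were lower and 4336 higher. Without the replicate block that pairs arrays by number, 1972 were lower and 3253 higher. Centring on the 75th percentile, chosen after seeing the data, gave 4021 and 2209. Leaving out the intensity trend gave 1195 and 1442, and testing 1 probe set per gene gave 1421 and 2740 with fewer probe sets. Leaving out a pair gave 1607 to 1744 lower and 2399 to 2618 higher, with 1 residual degree of freedom fewer. Apart from that construction, the cause of each shift was not tested. The log2 difference of Snrpd3 reversed when its probe sets were averaged (-0.04). Of 232 named genes called lower, 183 kept their call with each pair left out and 140 in every other setting. Of 155 called higher, 107 and 67 did. Signal near the floor limits the sizes of the largest differences, and 3 arrays per group limit the small ones.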
